A study of Mus musculus with 12 samples.

Results

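Regulatory T cells (Treg) sorted from established MC38 tumours were compared with Treg from the spleens of tumour-free mice, across all genes of a whole-genome array. The 6 arrays of this comparison, of 12 in the series, were taken by their titles: 3 replicates of total tumour Treg and 3 of spleen Treg, both from FoxP3-EGFP reporter mice on C57BL/6. MC38 is a colon carcinoma line of the same strain, which was implanted under the skin. Tumours were collected at 2 weeks, pooled and digested. The labels state 3 experiments for each population and no treatment, age or number of animals. Cells were sorted on an Aria II as CD45+, CD11b low, CD3+ and CD4+, and then on EGFP, which reports Foxp3. Spleen donors carried no tumour, so the tissue, the presence of a tumour in the animal and the digestion of the tumour cannot be told apart. The other 6 arrays, IL10+ and IL10- tumour Treg of VERT-X mice (an Il10 reporter on C57BL/6, gated on CD25+ and CD120b+/low), entered the fit for their spread. They were also used to ask whether a gene named here differed between the 2 kinds of tumour Treg. In bulk RNA, fewer cells of a type and less RNA per cell cannot be told apart.

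Treg are CD4 T cells that hold immune responses in check, and the transcription factor Foxp3 defines them. In lymphoid organs most of them circulate in a resting state kept by factors such as Tcf7, Lef1 and Bach2, and receptors such as Ccr7 and S1pr1 guide their traffic. In tissues and tumours Treg take on an effector state, with division, new homing and adhesion receptors, and a metabolism that has to meet low oxygen and scarce nutrients. The oxygen-sensing factor HIF binds the core sequence ACGTG and drives genes for glucose uptake and glycolysis. Dividing cells switch on replication genes through E2F factors and mitotic genes through complexes that bind the cell cycle genes homology region, TTTGAA.

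Levels are log2 of the processed signal minus the 75th percentile of the same array, so that 0 marks that percentile. A level cannot be compared between probes of different genes. Differences are tumour minus spleen on this log2 scale, given ± the standard error (SE) of the limma fit with 3 arrays a group. A gene was called, and is said to have risen or fallen, at a Benjamini-Hochberg adjusted p from limma under 0.05. The fit covered 15544 features. The SE and p-values measure the spread within all 4 groups of the 12 arrays. A gene that varied among the VERT-X arrays thus has a wide SE here, even where tumour and spleen replicates were close. The 75th percentile of the signal lay between 306 and 471 on the 6 arrays, and 46.0% to 53.4% of probes were well above background. Tumour replicates correlated with each other at 0.987 to 0.989 and spleen replicates at 0.964 to 0.982 (Pearson r over the features). Spleen replicate 2 stood apart: limma gave it an array weight of 0.407, against 1.57 to 2.75 for the other 5 arrays. Values without that array are thus given for many of the genes where leaving it out ended a call or moved a called difference by over 1.5 times. All 3 spleen arrays and tumour replicate 3 lay on slide 4, and tumour replicates 1 and 2 on slide 2, so only tumour replicate 3 can be set against spleen within a slide.

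Of the 15544 features, 6571 were called (42.3%): 3417 rose in tumour Treg (22.0%) and 3154 fell (20.3%). Among the called features 2466 rose and 1718 fell by 2-fold or more, and 714 rose and 356 fell by 8-fold or more. Features were tested if well above background on at least 3 of 12 arrays, most of them tumour arrays. Genes seen only in tumour thus passed more easily than genes seen only in spleen. Among the 11683 features well above background on all 6 arrays, 2315 rose and 2794 fell. The groups did not overlap in 10219 of the 15544 features (65.7%). Without spleen replicate 2 the calls numbered 5431 (34.9%), of which 2921 were higher (18.8%) and 2510 lower (16.1%). Of the original calls, 5189 were kept in the same direction, 1382 were lost and none turned. When each array was centred instead on the median of 12 T cell core genes, 3696 were called (23.8%), 2301 higher (14.8%) and 1395 lower (8.97%). That centring moved the median difference of all features from -0.01 to 0.14, and the share of calls that were higher from 52.0% to 62.3%. With slide as a block 3382 were called (21.8%), 1877 higher (12.1%) and 1505 lower (9.68%). Within slide 4, where tumour replicate 3 is set against the same 3 spleen arrays, the median difference was 1.35 for glycolysis, 1.8 for hypoxia response, 1.52 for DNA replication and -1.71 for quiescence genes, lists described further on. These values share their arrays with the calls. The fit with slide as a block gives the same differences, because spleen arrays lie on slide 4 only. Its counts, here and below, thus rest on tumour replicate 3 alone against the 3 spleen arrays. A call lost in that fit does not show an effect of the slide. With a normexp background correction 1865 were called.

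The gate was checked first. The T cell genes of the gate were at similar levels in both groups. Cd3e, a chain of the T cell receptor complex, was at 3.08, 2.62 and 3.16 in tumour replicates 1 to 3 and at 3.24, 3.42 and 3.16 in spleen replicates 1 to 3 (difference -0.32 ± 1.09, adjusted p = 0.845, limma). That SE includes the VERT-X arrays, where Cd3e ran from 1.731 to 5.865. Cd4 read 0.79, 0.36 and 0.81 in tumour and 0.57, 1.49 and 0.69 in spleen, and its difference was -0.26 with all arrays and 0.02 without spleen replicate 2. Neither passed the test, and nor did Ptprc, which encodes CD45 (-0.47 ± 0.26, adjusted p = 0.180). For Ptprc every tumour value lay below every spleen value, in a comparison where 65.7% of features did not overlap. It was called lower with quantile normalization (-0.69), from the deposited values (-0.73), with the 6 arrays alone (-0.47) and with array weights (-0.43). Itgam, which encodes the CD11b on which high cells were gated out, was at -1.64, -0.92 and -1.56 in tumour and at -3.45, -4.86 and -3.49 in spleen. It rose by 2.56 ± 0.37 (adjusted p = 4.80e-04), with no overlap between the groups. Macrophage and fibroblast markers were also higher in tumour, and B cell markers higher in spleen, as described near the end. All differences below are of the sorted samples, and the part of such cells in them was not tested.

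The Foxp3 probe (chrX:6751991-6752050 in mm8, the build of the array annotation) gave no signal well above background on any of the 6 arrays. Its level was -6.38, -6.53 and -6.17 in tumour and -6.09, -5.78 and -6.33 in spleen, all below the lowest levels that counted as above background on those arrays (-4.81 to -3.74). On the 6 VERT-X arrays the same probe lay between 2.64 and 4.65. It was well above background on all 6, and at least 343-fold higher than in total tumour Treg, a bound set against the lowest signal that counted as above background on each total tumour array. The defining marker was thus not measured in the sorted EGFP+ cells by this probe, and the cause was not tested.

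Of 16 tested genes of the Treg core list (surface and nuclear genes typical of Treg in any tissue), 7 rose and 1 fell, with a median difference of 1.6. These were 43.75% and 6.25%, beside 22.0% and 20.3% of all features. The change rested in part on 1 array. Ctla4, the inhibitory receptor of Treg, was at 6.01, 5.42 and 5.54 in tumour and at 3.12, -0.89 and 3.29 in spleen. Gpr83, an orphan receptor that marks Treg, was at -0.20, -1.02 and 0.03 in tumour and at 4.44, 1.23 and 5.0 in spleen. Tnfrsf18 (GITR) read 8.08, 7.59 and 8.12 in tumour against 6.79, 4.72 and 6.75. Spleen replicate 2 was the lowest spleen array for each of these, and for Ikzf2 (-1.23, against 3.12 and 3.27) and Il2ra (-3.90, against 0.72 and 1.27), while for Tcf7 it was the highest. The summed level of 5 Treg markers was 7.01 and 7.02 on spleen replicates 1 and 3, 4.78 on spleen replicate 2 and 7.93 to 8.43 on the tumour arrays.

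Without spleen replicate 2 the Treg core list still had 7 higher, but 3 lower and a median of 0.54. Ctla4 then rose by 2.46 (adjusted p = 9.87e-05) and Gpr83 fell by 5.12 (adjusted p = 1.05e-04). The rise of Tnfrsf18 was 1.16, against 1.84 with all arrays. Ikzf2 changed sign, from 1.01 to -0.46, and was called in neither fit. Nrp1, a semaphorin receptor of thymic Treg, went from -0.06 (adjusted p = 0.962) to a call at -1.27 (adjusted p = 0.00133). The number of higher calls was 3 without tumour replicate 1, 5 without tumour replicate 2 and 4 without tumour replicate 3, and none of the list was called with slide as a block.

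**Figure D1:**
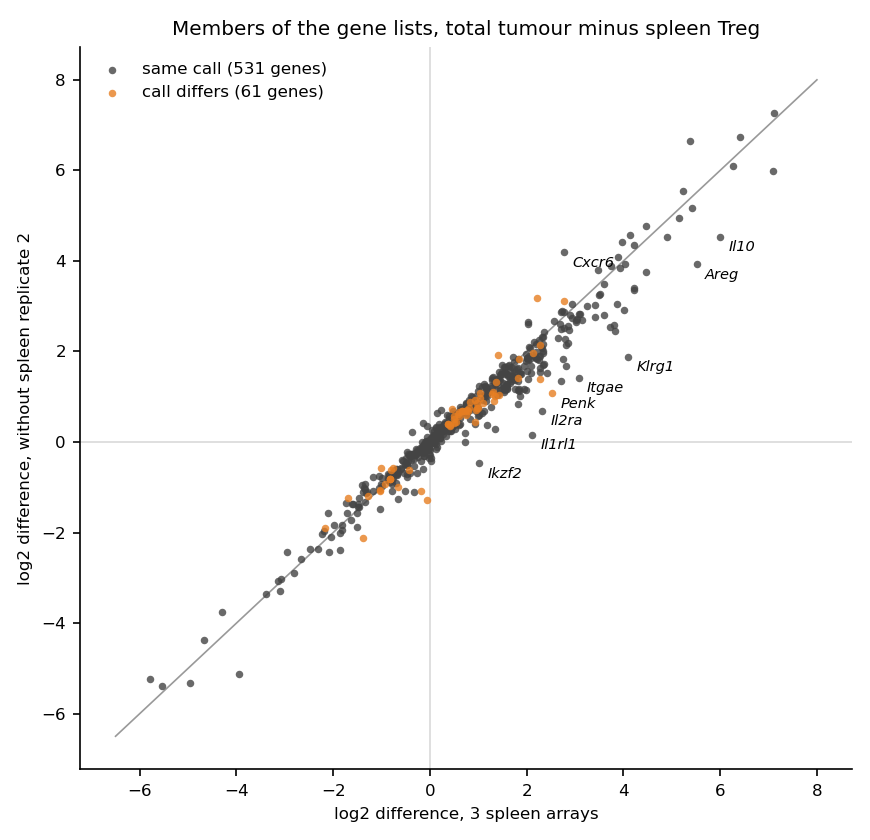
Difference between total tumour and spleen Treg (log2) for 592 distinct list genes, with all 3 spleen arrays on the x axis and without spleen replicate 2 on the y axis; orange points are the 61 genes whose call differed and the line marks equal values. The named genes lie off the line, Ikzf2 moving from 1.01 to -0.46 and Cxcr6 from 2.77 to 4.19.

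Across all programme lists together, 344 of 592 distinct genes were called with all arrays, beside 42.3% of all features. Leaving out spleen replicate 2 lost 52 of these 344 calls and added 9, beside 1382 lost of 6571 over all features, and 20 genes moved by more than 2-fold. Among the genes farthest from equality in the plot of differences with and without that array were Ikzf2, Il2ra, Itgae, Klrg1 and Areg of the Treg lists, and Cxcr6.

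Glycolysis genes rose widely in the tumour Treg samples. Of 21 glycolysis genes 16 rose and none fell (median difference 1.30, against -0.01 over all features, of which 22.0% rose), and 13 rose without spleen replicate 2. Bnip3, a mitophagy receptor and textbook HIF target, belongs to the hypoxia response list and not to glycolysis. It was at 4.16, 3.87 and 4.24 in tumour and at 0.18, -0.002 and 0.32 in spleen (probe at chr7:138729737-138729796 in mm8). The groups lay far apart with little spread, a rise of 3.93 ± 0.16 (15.2-fold, adjusted p = 6.61e-07). Tpi1, triosephosphate isomerase, was at 7.58, 7.47 and 7.63 in tumour and at 4.84, 4.25 and 4.80 in spleen, a rise of 2.93 ± 0.18 (adjusted p = 3.25e-06). Pgk1, phosphoglycerate kinase, was at 6.38, 6.20 and 6.34 against 4.26, 4.37 and 4.15 (2.05 ± 0.12, adjusted p = 2.82e-06). Pgam1, phosphoglycerate mutase, rose by 2.32 ± 0.23. All 6 spleen and tumour values of these enzymes were separated by more than the spread within either group.

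The steps that bring glucose in and lactate out showed both large changes and none. Slc16a3, the lactate exporter MCT4, was at 5.39, 5.40 and 5.71 in tumour and at 1.64, -0.41 and 1.84 in spleen. It had the largest difference of the list (4.47 ± 0.52, adjusted p = 1.41e-04; 3.76 without spleen replicate 2). Hk2, the inducible hexokinase, was at 0.88, 0.89 and 0.71 against -1.73, -2.90 and -1.93 (3.01 ± 0.45, adjusted p = 5.96e-04). The glucose transporter Slc2a1 rose by 2.34 ± 0.34. Slc2a3, the other main glucose transporter of lymphocytes, did not pass the test: it read 3.05, 2.56 and 2.95 in tumour and 3.50, 2.29 and 3.56 in spleen (adjusted p = 0.682). Hk1 (0.34), Pfkm (0.12) and Pfkfb4 (-0.06) were not called either. Ldha, lactate dehydrogenase, rose by 1.28 ± 0.14 (adjusted p = 8.12e-05). Gapdh rose by 1.84 on its brightest probe, but this gene has many near-identical copies in the genome and the call was lost without spleen replicate 2 (adjusted p = 0.0964).

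The hypoxia response list behaved alike, with 14 of 18 genes higher (77.8%) and 1 lower (5.56%), beside 22.0% and 20.3% of all features. Its median was 1.74. Ero1a, an oxidase of the endoplasmic reticulum, rose by 2.93 ± 0.19 (adjusted p = 4.51e-06). Vegfa, the angiogenic growth factor, was well above background on all tumour arrays (0.29, 0.63 and 0.24) and on none of the spleen arrays (-5.36, -4.22 and -4.96). It was at least 21.8-fold higher in tumour (adjusted p = 5.54e-06), a bound set against the lowest signal that counted as above background on each spleen array. Hif1a itself rose by 1.86 ± 0.41, and Egln3, the oxygen sensor that HIF induces, rose by 3.41 ± 0.46. Pdk1, the kinase that keeps pyruvate out of mitochondria, was the member called lower: it was at 0.47, 0.13 and 0.28 in tumour and at 0.99, 2.29 and 1.13 in spleen, a fall of 1.18 (adjusted p = 0.0102). The fall was 0.77 without spleen replicate 2, which read highest, and it was not called with T cell centring (adjusted p = 0.112) or with slide as a block (adjusted p = 0.128). With T cell centring 14 glycolysis and 12 hypoxia genes rose, and with slide as a block 14 and 12. With normexp the numbers were 4 and 8.

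Promoters of these lists were searched for the letters ACGTG on either strand in RefSeq windows of 300 bases (GRCm38.p6, 250 before to 50 after the start). They were present in 14 of 20 glycolysis genes with a window (70.0%) and in 13 of 16 hypoxia genes (81.2%), against 21.8% of all promoters. Among tested genes the share was 28.7%, among genes that rose 29.3% and among genes that fell 26.7%. The upstream 250 bases of Pgk1 (chrX:106186850-106187099, plus strand) and Bnip3 (chr7:138909507-138909756, minus strand) are shown because they carry the list's motif and belong to its most sharply separated genes. Capitals mark ACGTG or its reverse complement CACGT, and in Bnip3 the palindrome CACGTG is read on both strands:
Pgk1: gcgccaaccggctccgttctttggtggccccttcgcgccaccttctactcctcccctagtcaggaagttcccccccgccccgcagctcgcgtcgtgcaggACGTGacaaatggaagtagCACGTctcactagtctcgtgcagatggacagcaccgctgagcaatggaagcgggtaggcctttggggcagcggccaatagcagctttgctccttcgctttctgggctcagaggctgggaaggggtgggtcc
Bnip3: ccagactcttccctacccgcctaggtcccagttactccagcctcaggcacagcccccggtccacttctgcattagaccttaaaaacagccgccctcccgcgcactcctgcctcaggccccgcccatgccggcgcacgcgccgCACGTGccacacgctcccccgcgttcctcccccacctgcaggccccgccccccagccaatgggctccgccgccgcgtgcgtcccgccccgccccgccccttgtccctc
Counted from the start of transcription, the matches begin at -150 and -131 in Pgk1 and at -108 and -107 in Bnip3. A match is a description of the sequence and no measure of binding.

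**Figure D2:**
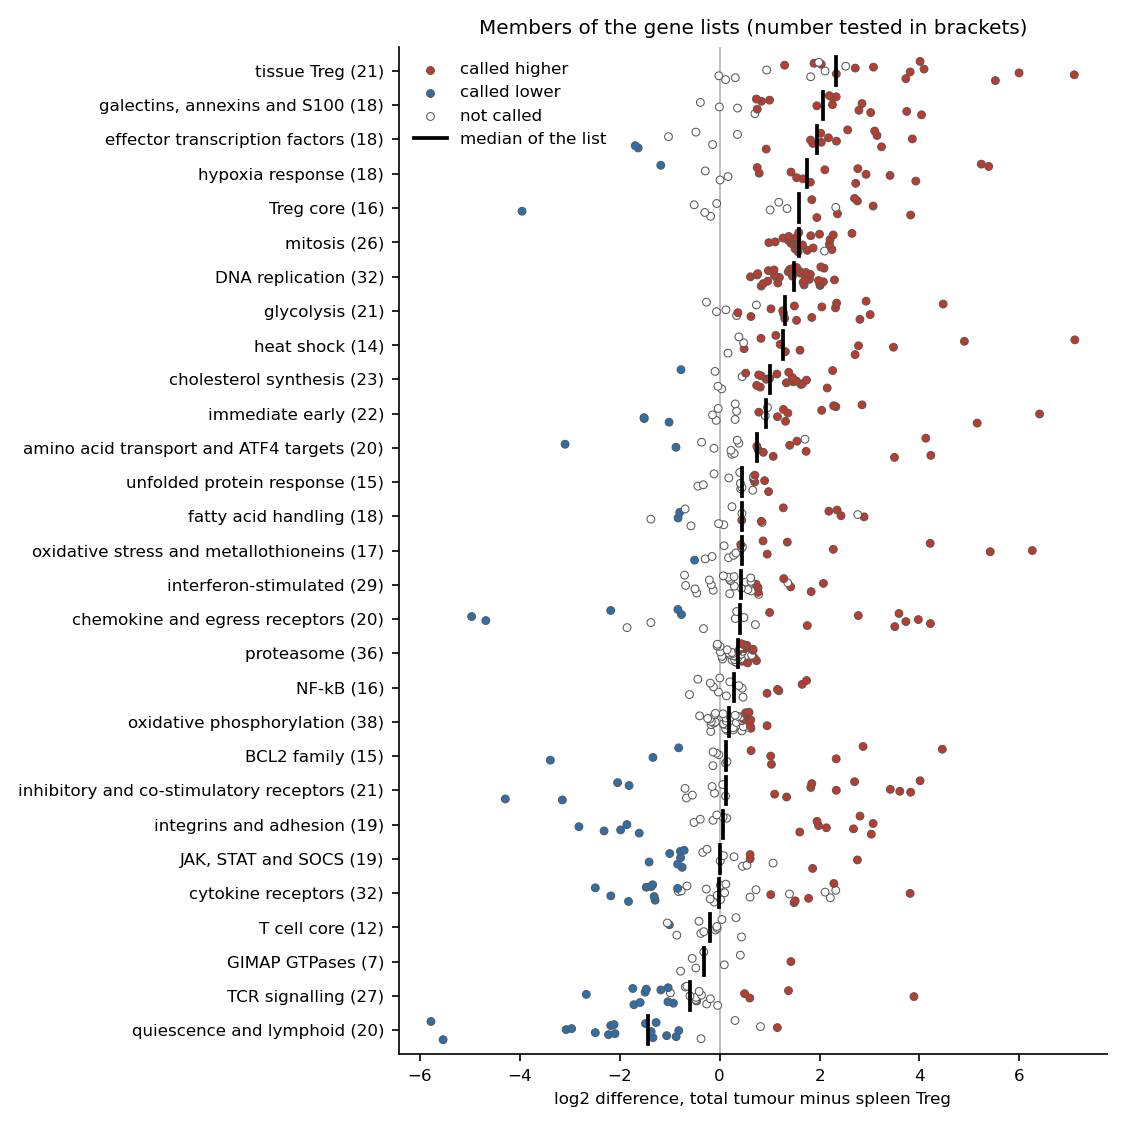
Difference between total tumour and spleen Treg (log2, x axis) for every tested member of 29 gene lists (y axis, number tested in brackets); red points rose, blue points fell, open points were not called and black bars are list medians. DNA replication and mitosis lie wholly to the right of 0, whereas the quiescence list lies mostly to its left with a median of -1.43.

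Replication genes rose without exception: all 32 tested members were called higher, beside 22.0% of all features, with a median of 1.5. E2f1, a transcription factor that starts S phase, was at 1.12, 1.35 and 1.28 in tumour and at -0.76, -0.81 and -0.91 in spleen. The groups did not overlap and the rise was 2.08 ± 0.13 (adjusted p = 3.52e-06). Ccne2, the cyclin of S phase entry, was at -1.09, -0.93 and -0.94 against -2.92, -3.32 and -2.75 (2.01 ± 0.17, adjusted p = 2.03e-05). Differences ran from 0.62 for Mcm4, a helicase subunit, to 2.30 for Gins2, of the complex that activates the helicase. Without spleen replicate 2 only Rfc4, a clamp loader subunit, lost its call (adjusted p = 0.0574). With T cell centring 25 remained above the threshold and with normexp 7.

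Of 26 mitosis genes 25 rose (96.15%, beside 22.0% of all features), with a median of 1.59. Top2a, the topoisomerase that untangles chromosomes, was at 2.28, 2.35 and 2.24 in tumour and at 0.34, -0.72 and 0.43 in spleen (2.27 ± 0.29, adjusted p = 2.15e-04). Kif23, a motor protein of cell division, was at 1.10, 1.24 and 0.96 against -0.01, -0.41 and -0.40 (1.37 ± 0.17, adjusted p = 1.73e-04). Tumour values were tight in both. Spleen replicate 2 was the lowest spleen array for Top2a, while for Kif23 it read about the same as replicate 3. Ccna2 (cyclin A) rose by 1.87 ± 0.27 and Mki67, the proliferation marker, by 1.54 ± 0.30. Aurkb, a mitotic kinase, was the member that was not called (2.10 ± 0.81, adjusted p = 0.0610), and Ttk, a checkpoint kinase, was at least 3.75-fold higher. The median level of the mitosis list relative to the mean of the 6 arrays was -1.6 on spleen replicate 2, against -0.34 and -0.58 on spleen replicates 1 and 3. Without that array 24 rose, with a median of 1.29. With slide as a block 6 mitosis and 29 replication genes rose, and with normexp 3 mitosis genes did.

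The promoter motifs of division genes were counted in the same windows. TTTGAA, the cell cycle genes homology region, was present in 16 of 22 mitosis promoters (72.7%), against 20.2% of all promoters and 14.6% of tested genes. Among genes that rose it was in 16.0%, and among genes that fell in 13.1%. An E2F motif (TTTCCCGC, TTTGGCGC or TTTCGCGC) was in 11 of 26 replication promoters (42.3%), against 2.12% of all promoters and 3.92% of tested genes. Among genes that rose the share was 5.09%, and among genes that fell 3.50%. The upstream windows of Top2a (chr11:99024190-99024439, minus strand) and of Mcm6 (chr1:128359706-128359955, minus strand), a helicase subunit that rose by 1.10, show the arrangement. Capitals mark the motif on either strand:
Top2a: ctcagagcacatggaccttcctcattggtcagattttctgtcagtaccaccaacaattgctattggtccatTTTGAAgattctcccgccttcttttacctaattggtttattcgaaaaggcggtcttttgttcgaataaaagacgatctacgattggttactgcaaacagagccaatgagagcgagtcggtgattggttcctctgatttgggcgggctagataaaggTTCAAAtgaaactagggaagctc
Mcm6: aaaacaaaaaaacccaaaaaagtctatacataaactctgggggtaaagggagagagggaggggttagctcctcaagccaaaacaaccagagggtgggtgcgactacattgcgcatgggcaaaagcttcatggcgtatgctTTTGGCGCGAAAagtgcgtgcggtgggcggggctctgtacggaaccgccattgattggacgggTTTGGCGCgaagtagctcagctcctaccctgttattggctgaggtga
Top2a carries TTTGAA at -179 and its reverse complement at -23 from the start. Mcm6 has 3 E2F matches, of which those at -110 and -106 overlap.

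**Figure D3:**
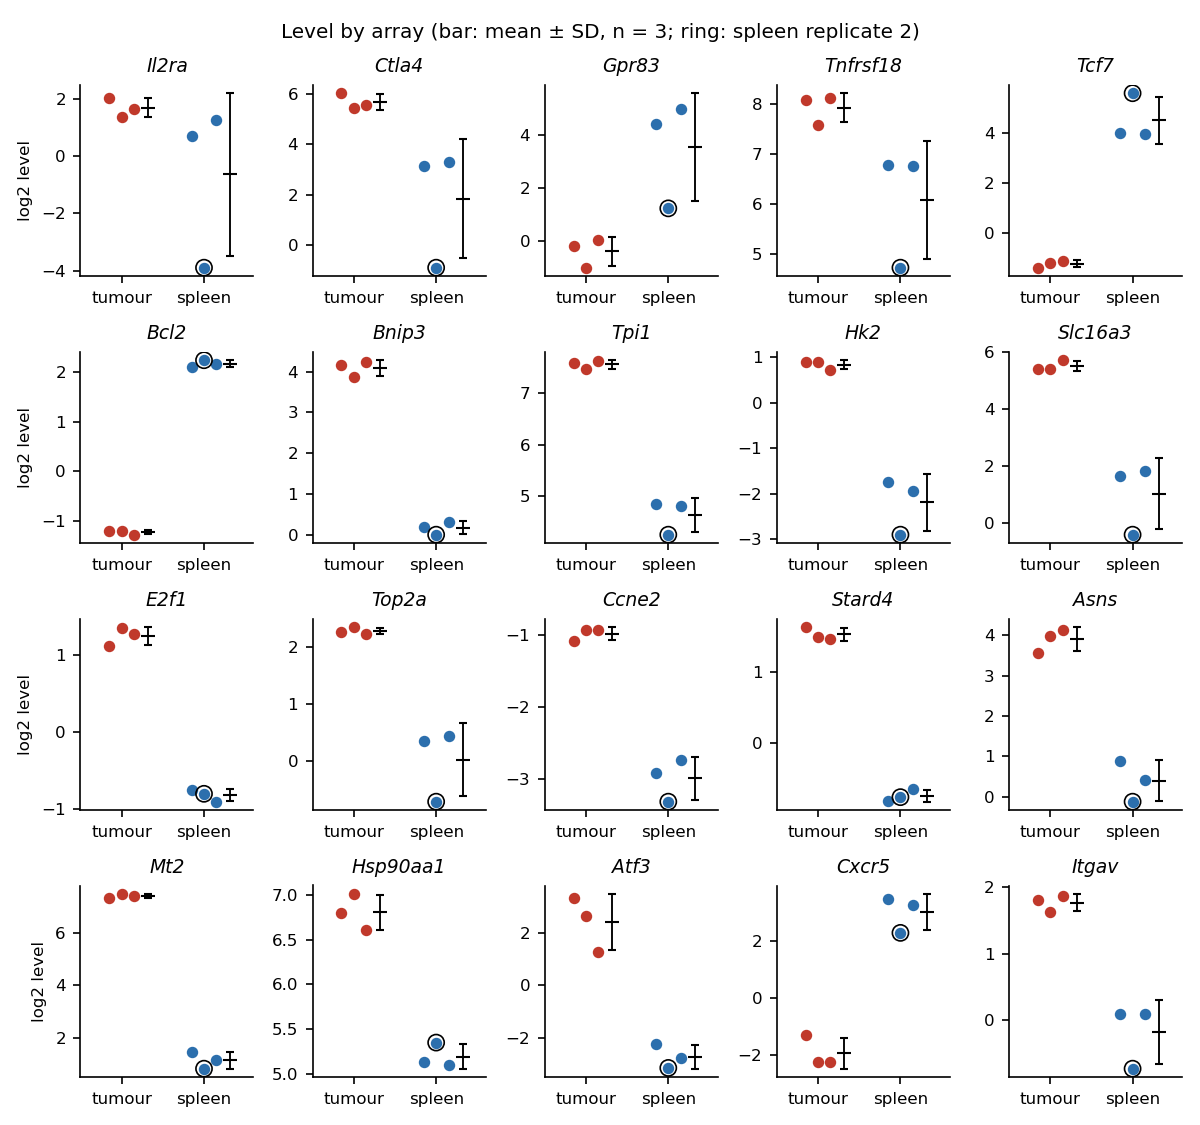
Level (log2, y axis, scale differing between panels and not starting at 0) of 20 genes on each array; red points are total tumour Treg, blue points spleen Treg, bars the mean ± SD of 3 arrays, and a ring marks spleen replicate 2. Bnip3, E2f1, Stard4 and Bcl2 show tight spleen replicates, whereas Il2ra, Ctla4 and Gpr83 have spleen replicate 2 far from the other spleen arrays.

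Sterol synthesis genes rose as well, with 18 of 23 higher (78.3%) and 1 lower (4.35%), beside 22.0% and 20.3% of all features. The list median was 1.0. Stard4, a cholesterol carrier protein, was at 1.63, 1.49 and 1.46 in tumour and at -0.81, -0.76 and -0.64 in spleen, with no overlap (2.26 ± 0.19, adjusted p = 1.92e-05). Insig1, the sterol sensor, was at 1.98, 1.81 and 1.74 against -0.12, 0.17 and 0.27 (1.74 ± 0.17, adjusted p = 4.50e-05). Cyp51, the lanosterol demethylase, rose by 2.15 ± 0.34. Srebf2, the transcription factor that drives these genes, was not called (-0.09 ± 0.13, adjusted p = 0.613), and nor was Dhcr7, the last enzyme of the path (-0.04). Tm7sf2, a sterol reductase, fell by 0.77 (adjusted p = 0.00409), but was not called with T cell centring (adjusted p = 0.311). The list had 14 higher calls without spleen replicate 2, 7 with T cell centring, 11 with slide as a block and 4 with normexp.

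Of 18 genes of fatty acid handling 7 rose (38.9%, beside 22.0% of all features) and 2 fell (11.1%, beside 20.3%), with a median of 0.44. Dgat1, which makes triglyceride, was at 5.37, 5.17 and 5.26 in tumour and at 2.49, 2.20 and 2.45 in spleen (2.89 ± 0.21, adjusted p = 7.68e-06). Plin2, which coats lipid droplets, was at 3.67, 3.74 and 3.49 against 1.30, 1.45 and 1.09 (2.35 ± 0.18, adjusted p = 1.30e-05). Neither overlapped between groups. Fasn, the fatty acid synthase (0.45), and Acly (0.08), which supplies its acetyl-CoA, were not called. Lpin1 (-0.80, adjusted p = 0.0150) and Cpt1a (-0.83), of phospholipid synthesis and mitochondrial import, were the members that fell, and without spleen replicate 2 or tumour replicate 3 neither was called. With T cell centring 4 genes of this list rose and none fell.

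Amino acid supply and the targets of ATF4, the factor of the amino acid stress response, had 10 of 20 genes higher and 2 lower (median 0.76). Asns, asparagine synthetase, was at 3.56, 3.99 and 4.14 in tumour and at 0.89, -0.12 and 0.41 in spleen (3.50 ± 0.39, adjusted p = 1.04e-04). Slc3a2, the heavy chain of the leucine transporter, rose by 1.4 ± 0.14 and its partner Slc7a5 by 1.55. Slc43a1, another leucine transporter, went the other way: it was at -4.23, -4.38 and -4.13 in tumour and at -0.82, -1.56 and -1.08 in spleen, a fall of 3.09 (adjusted p = 1.19e-04). With T cell centring 5 rose and 1 fell, and with normexp 1 rose.

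Oxidative phosphorylation and the proteasome differed little. Of 38 respiratory chain genes 8 rose (21.1%, near the 22.0% of all features) and none fell (beside 20.3%), with a median of 0.19. The largest member was Cycs, cytochrome c, at 5.58, 5.77 and 5.81 in tumour against 4.73, 4.91 and 4.67 (0.95 ± 0.14, adjusted p = 6.41e-04). Of 36 proteasome genes 13 rose (36.1%, beside 22.0%) and none fell (beside 20.3%). The median was 0.37 and the largest difference 0.74 for Psma5, a subunit of the core particle. Both lists had no call with T cell centring or with normexp. The respiratory list had 3 to 5 higher calls when 1 of the 6 arrays was left out, and the proteasome list 4 without tumour replicate 3, 7 without spleen replicate 3 and 8 without tumour replicate 1 or spleen replicate 2.

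Stress genes rose unevenly. Of 17 genes of oxidative stress and metal binding 8 rose (47.1%, beside 22.0% of all features) and 1 fell (5.88%, beside 20.3%). The metallothionein Mt2 was at 7.33, 7.46 and 7.42 in tumour and at 1.46, 0.82 and 1.15 in spleen (6.26 ± 0.40, 76.5-fold, adjusted p = 4.03e-06), and Mt1 rose by 5.42. The sequences of Mt1 and Mt2 are alike, so the share of each is uncertain. Srxn1, which repairs oxidised peroxiredoxins, was at 2.89, 3.14 and 3.06 against -0.18, -2.91 and -0.47 (4.21 ± 0.57; 3.35 without spleen replicate 2). Hmox1 (0.33), Gclm (0.18) and Gpx4 (0.28), other genes of the antioxidant response, were not called. Cat, catalase, fell by 0.50 (adjusted p = 0.0162), a call that was lost without tumour replicate 3. The list had 4 higher calls with T cell centring.

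Heat shock genes had 11 of 14 members higher (78.6%) and none lower (median 1.26), beside 22.0% and 20.3% of all features. Hsp90aa1, the inducible cytosolic chaperone, was at 6.80, 7.01 and 6.61 in tumour and at 5.14, 5.35 and 5.10 in spleen (1.61 ± 0.15, adjusted p = 3.11e-05). It was 0.94 higher in total tumour than in VERT-X tumour Treg (adjusted p = 0.0271), but 0.46 with T cell centring, where it was not called (adjusted p = 0.344), and leaving out any 1 total tumour array or spleen replicate 1 ended the call. Bag3, a chaperone partner, was at 3.61, 3.45 and 2.17 against 0.42, -0.06 and 0.74, with the smallest rise on tumour replicate 3. Hspb8, a small heat shock protein, was well above background on the tumour arrays alone and at least 28.5-fold higher. Hspa1a and Hspa1b, near-identical copies, rose by 3.48 and 2.78, and their shares are uncertain. Hspa1b was not called without spleen replicate 2 (adjusted p = 0.0601). Chaperones of the endoplasmic reticulum changed less: of 15 genes of the unfolded protein response 5 rose, led by Hspa5 (BiP), at 6.41, 6.15 and 5.98 against 5.39, 5.26 and 5.18 (0.90 ± 0.15, adjusted p = 9.60e-04). Those 5 were 33.3% of that list, beside 22.0% of all features. With slide as a block 6 heat shock genes and 2 of the unfolded protein response rose.

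Among 22 immediate early genes 11 rose and 3 fell. Ier3, a survival gene, was well above background only in tumour (2.04, 2.15 and 1.42) and at least 60.7-fold higher (adjusted p = 1.22e-05). Atf3, a stress-induced transcription factor, was at 3.35, 2.64 and 1.27 in tumour and at -2.26, -3.16 and -2.79 in spleen (5.16 ± 0.47, adjusted p = 3.10e-05). Klf4 was at 3.93, 3.78 and 3.32 against 1.76, 1.37 and 1.76 (2.04 ± 0.30). Tumour replicate 1 was the highest tumour array for Atf3, Klf4 and Fos, and replicate 3 the lowest. The genes induced by antigen receptor signals did not move as one. Nr4a2 rose by 2.33, Nr4a1 was not called (0.96, adjusted p = 0.107), and Egr2 and Egr3 each fell by 1.51. Btg2, which slows division, fell by 1.01. Higher calls numbered 6 without tumour replicate 1 and 7 without spleen replicate 2, and 4 rose and 1 fell with slide as a block.

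Of 16 NF-kB genes 5 rose (31.25%, beside 22.0% of all features) and none fell (beside 20.3%), and the 5 include feedback inhibitors. Tnfaip3 (A20), which shuts the pathway down, was at 6.48, 5.8 and 5.93 in tumour and at 4.39, 3.91 and 4.69 in spleen (1.74 ± 0.27, adjusted p = 7.03e-04). Nfkbia, the main inhibitor, rose by 1.16, Nfkbiz by 1.65 and the subunit gene Nfkb2 by 1.19, while Nfkb1 (-0.03), Rela (-0.19) and Relb (0.20) were not called. A kappaB motif was in 4 of 13 NF-kB list promoters (30.8%) and in 1 of 18 tissue Treg promoters (5.56%), against 1.89% of all promoters and 1.98% of tested genes. The AP-1 motif TGANTCA was in 3 of 13 NF-kB list promoters (23.1%) and in 4 of 18 tissue Treg promoters (22.2%), against 8.97% of all promoters and 6.48% of tested genes. Of 29 interferon-stimulated genes 7 rose (24.1%, close to the background of 22.0%) and none fell, beside 20.3% of all features. Isg20, an RNA exonuclease, was at 6.04, 5.70 and 6.11 against 4.15, 3.39 and 4.07 (2.08 ± 0.28) and Oasl2 rose by 1.28, while Ifit1 (0.56) and Irf7 (0.29) were not called. The NF-kB list had 2 calls with slide as a block, and 4 higher and 1 lower without spleen replicate 2, where Icam1 was no longer called and Tnip1 was called lower (-0.63, adjusted p = 0.0251). The interferon list had 4 calls without spleen replicate 2, 4 or 5 without each of the other arrays, and 10 with T cell centring.

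Factors of the resting state fell and many effector factors rose. Of 20 quiescence and lymphoid homing genes 16 fell and 1 rose (median -1.43, against a background of 20.3% lower). Tcf7 (probe at chr11:52096035-52096094 in mm8), the factor of resting and memory T cells, was at -1.41, -1.20 and -1.14 in tumour and at 4.01, 5.62 and 3.97 in spleen. It fell by 5.78 ± 0.40 with all arrays (adjusted p = 6.59e-06) and by 5.23 without spleen replicate 2. Bach2, a repressor of effector genes, was at -3.62, -2.84 and -2.50 against 2.11, 2.82 and 2.71, a fall of 5.54 ± 0.50. Klf3 fell by 3.07 ± 0.24, Lef1 by 2.96, Foxp1 by 2.23 and Satb1 by 2.12, as did the egress receptor S1pr1 (by 2.18). Ly6c1 rose by 1.15 on its brighter probe, but its other probe read lower in tumour and the mean of both was -0.25. The direction of this gene is uncertain, also because Ly6c2 is nearly identical. The number that fell was 14 without spleen replicate 2, 10 with slide as a block and 13 with T cell centring. CTTTGA, the core of TCF and LEF sites, was in 3 of 16 promoters of this list (18.8%), close to 18.2% of all promoters and above 14.2% of tested genes.

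Of 18 effector transcription factors 12 rose (66.7%, beside 22.0% of all features) and 2 fell (11.1%, beside 20.3%), with a median of 1.94. Bhlhe40, a repressor of tissue T cells, was at 5.17, 4.52 and 4.43 in tumour and at 1.82, 1.0 and 1.58 in spleen (3.24 ± 0.30, adjusted p = 5.77e-05). Runx2 was at 2.38, 1.98 and 2.09 against -0.47, -1.90 and -0.62 (3.15 ± 0.33, adjusted p = 6.51e-05). Both were separated by more than the spread of the spleen arrays. Nfil3 rose by 3.86, Rora by 2.18, Id2 by 2.03, Tbx21 by 2.02 and Maf by 1.82. Ikzf3 rose by 2.34 on its brightest probe, but its 4 probes disagreed, with differences from -1.26 to 2.34. Bcl6, the factor of follicular T cells, fell by 1.63 ± 0.28 (adjusted p = 0.00132), but was not called with T cell centring (adjusted p = 0.0557). Without spleen replicate 2 the list had 11 higher and 1 lower, and Ahr (0.45, adjusted p = 0.0569) and Eomes (-1.25, adjusted p = 0.147) were no longer called.

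Of 21 tissue Treg genes 13 rose and none fell (median 2.34, or 2.11 with genes not above background in spleen at their bound). Those 13 were 61.9% of the list, beside 22.0% of all features, of which 20.3% fell. Gzmb, the cytolytic protease granzyme B, was at 8.27, 7.63 and 8.09 in tumour and at 2.09, -1.31 and 1.92 in spleen (7.10 ± 0.76, adjusted p = 7.81e-05; 5.99 without spleen replicate 2). Icos, a co-stimulatory receptor, was at 7.08, 6.55 and 7.0 against 4.91, 3.89 and 4.82 (2.33 ± 0.39, adjusted p = 0.00117). Klrg1, a marker of differentiated Treg, was at 5.53, 4.72 and 5.13 against 3.25, -3.37 and 3.22, so that its rise was 4.09 with all arrays and 1.89 without spleen replicate 2. Areg, the repair factor amphiregulin, went from 5.52 to 3.93 in the same way. Gata3 (-0.02) and Batf (0.12), factors of tissue Treg, were not called. The list median was 1.5 without spleen replicate 2, where 13 rose, and 6 rose with slide as a block.

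**Figure D4:**
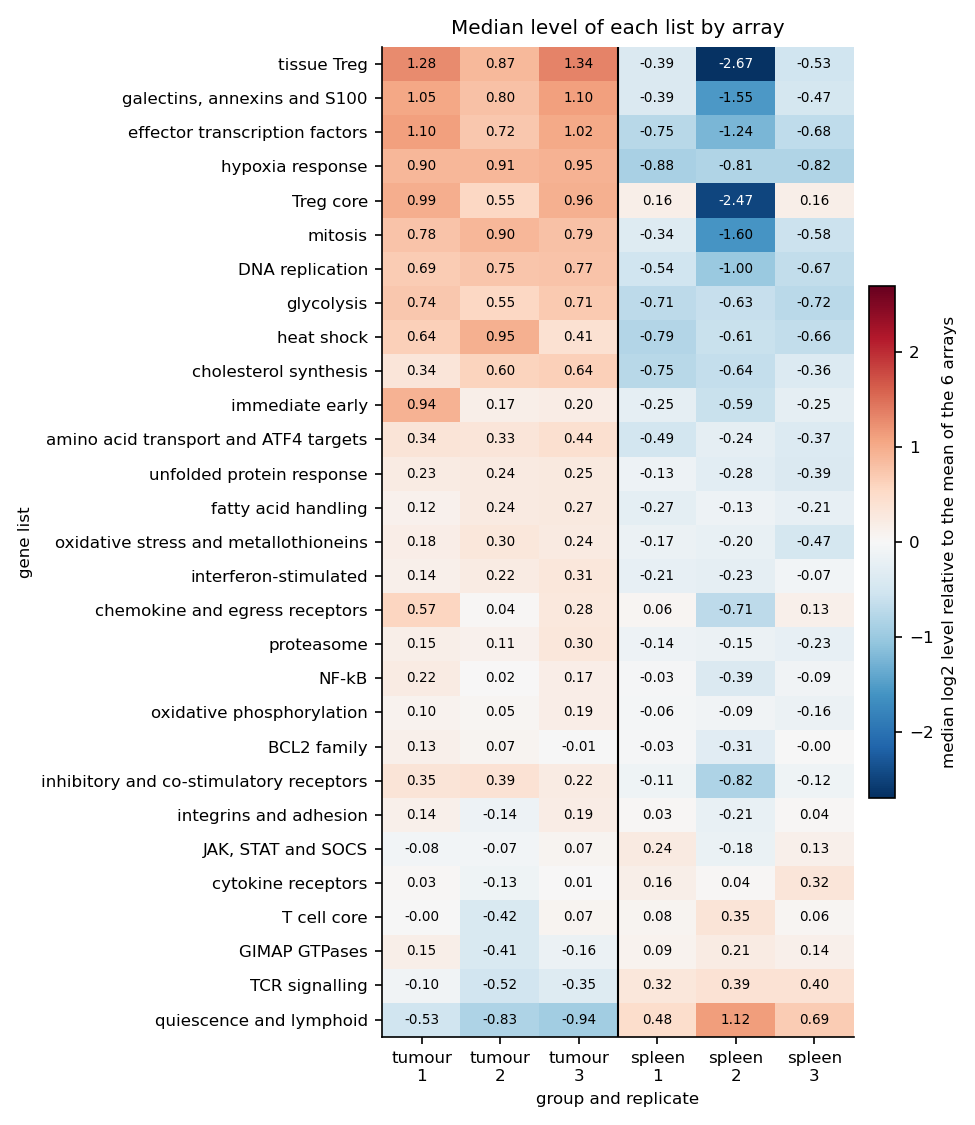
Median level of each gene list on each array (log2, relative to each gene's mean over the 6 arrays), with lists on the y axis and arrays on the x axis; red is higher and blue lower. Hypoxia response reads 0.90 to 0.95 on the tumour arrays and -0.88 to -0.81 on the spleen arrays, whereas Treg core and tissue Treg read -2.47 and -2.67 on spleen replicate 2 alone.

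Genes of T cell receptor signalling changed in both directions. The core list of 12 T cell genes had none higher and 1 lower, and no call without spleen replicate 2. Of 27 TCR signalling genes 10 fell (37.0%, beside 20.3% of all features) and 4 rose (14.8%, beside 22.0%), with a median of -0.60. Prkcq, the kinase PKC theta, was at 1.53, 1.05 and 1.55 in tumour and at 3.81, 4.22 and 4.11 in spleen, a fall of 2.67 ± 0.42 (adjusted p = 7.70e-04). Dgka, which removes diacylglycerol, was at 4.12, 3.81 and 4.06 against 5.33, 6.04 and 5.41, a fall of 1.59 ± 0.26. Rasgrp1, which activates RAS below the receptor, fell by 1.49. Nfatc2 rose by 3.89 on its brightest probe (adjusted p = 7.81e-04), but the mean of its 3 probes was 1.48 and not called (adjusted p = 0.0849). Whichever of the 6 arrays was left out, 7 fell, and 2 rose without tumour replicate 1 or 3. The slide block left 2 higher and 6 lower.

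Trafficking receptors changed in both directions. Of 20 chemokine and egress receptors 8 rose (40.0%, beside 22.0% of all features) and 5 fell (25.0%, near the 20.3% of all features). Ccr2, the receptor for Ccl2, was at 1.83, 1.37 and 1.29 in tumour and at -1.74, -2.50 and -1.78 in spleen (3.51 ± 0.42). Cxcr5, which guides cells to follicles, was at -1.32, -2.26 and -2.27 against 3.48, 2.29 and 3.27, a fall of 4.96 ± 0.35 (adjusted p = 6.85e-06), and Ccr9, the gut homing receptor, fell by 4.68. The groups of these receptors did not overlap. Cxcr6 was at 4.49, 3.99 and 4.23 in tumour and at 0.35, 4.28 and -0.25 in spleen, where replicate 2 reached the tumour level. Its rise was 2.77 with all arrays and 4.19 without that array. Cxcr4 (0.48) and Cxcr3 (0.31) were not called. Higher calls numbered 4 without tumour replicate 1, and lower calls 3 without tumour replicate 2 or 3 or spleen replicate 3. With slide as a block 4 rose and 3 fell.

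Of 19 integrin and adhesion genes 8 rose (42.1%, beside 22.0% of all features) and 5 fell (26.3%, near the 20.3% of all features). Cd44, the hyaluronan receptor of activated T cells, was at 4.13, 3.66 and 4.0 in tumour and at 2.58, 2.07 and 2.32 in spleen (1.6 ± 0.18, adjusted p = 1.03e-04). Itgav, the alpha v chain that pairs with Itgb8 to activate TGF-beta, was at 1.81, 1.62 and 1.87 against 0.10, -0.73 and 0.09 (1.95 ± 0.26), and Itgb8 rose by 2.81, or by 1.67 without spleen replicate 2. Itga6, a laminin receptor chain, was at 1.77, 1.84 and 1.92 against 3.68, 3.40 and 4.02, a fall of 1.86 ± 0.24, and Itga4, the alpha 4 chain of lymphocyte homing, fell by 2.82. Itgb1 (-0.13), Itgb2 (-0.39) and Itgb7 (0.07), the shared beta chains, were not called. The number that rose was 5 without tumour replicate 1 and 3 with slide as a block.

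Cytokine receptors changed in both directions, with 6 of 32 higher (18.8%, beside 22.0% of all features) and 9 lower (28.1%, beside 20.3%), shares near the background. Both chains of the interferon gamma receptor were called, in opposite directions. Ifngr1, which binds the cytokine, was at 6.68, 6.24 and 6.49 in tumour and at 5.14, 4.54 and 5.19 in spleen (1.51 ± 0.26, adjusted p = 0.00117). Ifngr2, the signalling chain, was at 0.59, 1.0 and 0.62 against 1.76, 2.40 and 1.93, a fall of 1.29 ± 0.20 (adjusted p = 6.53e-04). That fall was not called with T cell centring (adjusted p = 0.0741). Il12rb1, the shared chain of the IL-12 and IL-23 receptors, rose by 1.78 ± 0.29. Ifnar2 fell by 1.82 on its brighter probe, while its other probe read 0.55 higher. Il6st, Il6ra, Il7r and Tgfbr2 fell by 1.47, 2.49, 1.37 and 1.34. Without spleen replicate 2 the list had 8 higher and 8 lower. Within the slide block 2 rose and 7 fell, and with T cell centring 7 rose and 5 fell.

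Downstream of these receptors, 4 of 19 JAK, STAT and SOCS genes rose (21.1%, near the 22.0% of all features) and 7 fell (36.8%, beside 20.3%). Stat4, the mediator of IL-12 signals, was at 2.29, 2.15 and 1.97 in tumour and at 3.14, 3.20 and 3.06 in spleen, a fall of 1.0 ± 0.21 (adjusted p = 0.00385). Jak1 fell by 0.75 ± 0.17 and Pim2, a survival kinase, by 1.41 ± 0.33 (0.96 without spleen replicate 2). Neither was called with T cell centring (adjusted p = 0.147 and 0.0757). Among feedback genes of IL-2 and STAT5, Socs2 rose by 2.76 (adjusted p = 0.0179) and Cish by 1.86 (adjusted p = 0.0276). For Socs2 spleen replicate 2 read -0.45, against 2.31 and 2.40, and the rise was 1.82 without it, while that of Cish was 1.01. Without tumour replicate 1 none of the list was called higher, and 2 were without each other array. With T cell centring 3 rose and 1 fell, and with slide as a block 1 rose and 2 fell.

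Receptors that restrain or support T cells had 10 of 21 members higher (47.6%, beside 22.0% of all features) and 4 lower (19.0%, near 20.3%). Havcr2 (TIM-3) was at 2.21, 1.77 and 2.00 in tumour and at -1.43, -1.83 and -1.58 in spleen (3.61 ± 0.20, adjusted p = 2.15e-06). Btla, another inhibitory receptor, went the opposite way, at -1.76, -1.77 and -1.53 against 1.35, 1.63 and 1.4, a fall of 3.15 ± 0.16 (adjusted p = 1.74e-06). Cd160, which shares the ligand of Btla, fell by 4.29 ± 0.44. Lag3 rose by 3.42, Pdcd1 by 1.82 (1.16 without spleen replicate 2) and Tnfrsf9 by 4.01, while Cd28 (-0.10) and Cd27 (-0.55) were not called. Spleen replicates agreed for Havcr2 and Btla, unlike for Ctla4 and Tnfrsf9. The slide block left 2 higher and 4 lower.

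Of 15 survival genes of the BCL2 family 6 rose (40.0%, beside 22.0% of all features) and 3 fell, a share near the 20.3% of all features. Bcl2, the founding anti-apoptotic member, was at -1.20, -1.19 and -1.27 in tumour and at 2.10, 2.24 and 2.15 in spleen (probe at chr1:108539940-108539999 in mm8). All 3 of its probes were called lower, and the fall was 3.39 ± 0.30 (10.5-fold, adjusted p = 2.59e-05). Mcl1, another anti-apoptotic member, fell by 0.82, and Bcl2l1 (BCL-XL) rose by 2.33 (adjusted p = 0.0129). Of the pro-apoptotic members, Pmaip1 (NOXA) was at 4.72, 4.38 and 4.02 against 1.94, 0.69 and 1.87 (2.87 ± 0.35), Bok rose by 4.46, and Bcl2l11 (BIM) fell by 1.34. Under the slide block 3 rose and 2 fell. Of 7 GIMAP genes, lymphocyte GTPases tied to survival, 1 was called: Gimap5 rose by 1.43 on its brighter probe, while its other probe read -0.81. Gimap5 was also 1.03 higher in total tumour than in VERT-X tumour Treg (adjusted p = 0.0338), but not called with T cell centring (0.55, adjusted p = 0.238) or without any 1 total tumour array or spleen replicate 1 or 3.

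Of 18 genes of the galectin, annexin and S100 list 14 rose (77.8%, beside 22.0% of all features) and none fell (beside 20.3%). The list median was 2.07. Anxa1, an annexin of inflammation control, was at 3.97, 4.32 and 4.18 in tumour and at 0.42, -0.11 and 0.04 in spleen (4.04 ± 0.35, adjusted p = 2.41e-05). Anxa2 was at 5.34, 5.33 and 5.44 against 2.66, 1.71 and 2.67 (3.02 ± 0.28), and Vim, vimentin, rose by 2.20 ± 0.20. Lgals3 rose by 2.85 and S100a4 by 2.27. Lgals9, a ligand of TIM-3, was not called (-0.39). Spleen replicate 2 was the lowest for Anxa2 and S100a4, and the list median was 1.36 without it, again with 14 higher.

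Among single genes outside the cell type lists and measured on all 6 arrays, the 12 largest rises ran from 5.63 to 7.42. Cd63, a tetraspanin of lysosomes and granules, was at 4.52, 5.47 and 5.10 in tumour and at -2.03, -1.39 and -3.76 in spleen (7.42 ± 0.67, adjusted p = 3.05e-05). After Cd63 and Gzmb came Serpinh1, a collagen chaperone (6.48), Akr1b8, an aldo-keto reductase (6.37), and Serpinf1, a secreted serpin (6.26). Gng11 (6.13), Mxra7 (5.98), Pdgfa, a growth factor for mesenchymal cells (5.87), and Efemp2, of elastic fibres (5.64), followed. Tubb6, a beta tubulin, was at 4.52, 4.49 and 4.50 against -0.75, -1.22 and -1.42 (5.63 ± 0.38), though its other probe read -0.09. Without spleen replicate 2 each of these genes stayed called.

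The 12 largest falls ran from 4.55 to 8.77. Fcmr, the IgM Fc receptor, was at -4.25, -3.96 and -3.14 in tumour and at 5.51, 4.80 and 4.64 in spleen, a fall of 8.77 ± 0.50 (adjusted p = 2.48e-06). Nsg2, a vesicle protein, was at -1.99, -1.97 and -1.24 against 4.16, 4.90 and 4.51, a fall of 6.25 ± 0.40. Dtx1, a Notch pathway ubiquitin ligase, was at -0.02, -0.30 and 0.06 against 5.20, 5.66 and 5.21, a fall of 5.44 ± 0.33 (adjusted p = 3.01e-06). Chst3, a sulfotransferase, fell by 5.30 and Rflnb by 4.55 (3.785 without spleen replicate 2). Pou2af1, a coactivator of B cells, fell by 6.19 and H2-DMb2, of class II antigen loading, by 4.81. Hbb-bt, a beta globin whose copies are alike, fell by 8.68 with a wide spread in tumour (2.90, -1.88 and 0.70). Of all 138 genes named by rule, 3 were called between total tumour and VERT-X tumour Treg: Foxp3, Hsp90aa1 and Gimap5. In that comparison 178 of 15544 features were called (1.15%), 130 higher and 48 lower in total tumour, but with T cell centring 6 were higher and 384 lower. That centring moved the median difference of all features from 0.02 to -0.46. The number of calls was 2 without tumour replicate 1 or 3, 4 without tumour replicate 2, 3 without spleen replicate 1 and 23 without spleen replicate 3. Its reporter strain and gate cannot be told apart.

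**Figure D5:**
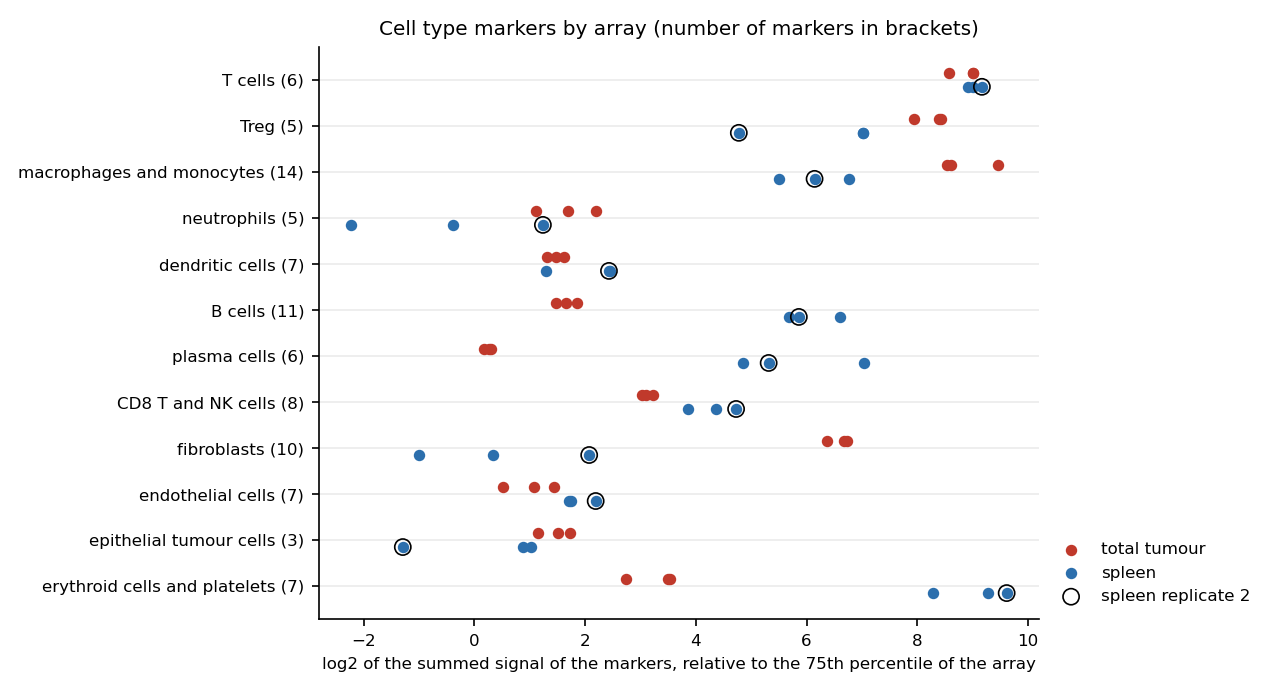
Summed signal of cell type markers on each array (x axis, log2, with 0 at the array's 75th percentile) for 12 marker lists (y axis, number of markers tested in brackets), with red points for total tumour arrays, blue points for spleen arrays and a ring for spleen replicate 2. T cell markers overlap between the groups, whereas fibroblast and macrophage markers are higher on every tumour array and B cell, plasma cell and erythroid markers higher on every spleen array.

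Markers of cells that the gate should remove moved with these differences, and their part in them was not tested. T cell markers summed to 8.58 to 9.0 in tumour and to 8.91 to 9.17 in spleen. Of 14 macrophage and monocyte markers 13 rose (92.9%, beside 22.0% of all features). Their summed level was 8.54 to 9.46 in tumour and 5.50 to 6.76 in spleen. Apoe, a lipid carrier of macrophages, was at 7.08, 8.02 and 7.07 in tumour and at 4.95, 4.26 and 3.86 in spleen (3.03 ± 0.39), and Lyz2, lysozyme, was at 6.29, 7.25 and 6.40 against 3.76, 3.29 and 0.89 (4.0 ± 0.62). Tumour replicate 2 was the highest for both. Of 10 fibroblast markers 9 rose (90.0%), with a sum of 6.37 to 6.72 in tumour and -0.99 to 2.07 in spleen. The collagen-binding Dcn was at 5.53, 5.86 and 5.88 against -4.99, -2.13 and -4.08, Sparc rose by 5.45 ± 0.82, and 5 of the 10 markers were not well above background on any spleen array, among them Mmp2 (at least 36.3-fold higher). Without spleen replicate 2 the rise was 10.29 for Dcn and 6.23 for Sparc, against 9.49 and 5.45.

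On the spleen side, all 11 B cell markers fell, beside 20.3% of all features (median -5.85 with genes not above background in tumour at their bound). Their sums were 1.48 to 1.85 in tumour and 5.69 to 6.61 in spleen. Cd79b was at 1.73, 1.30 and 1.49 against 5.83, 5.0 and 4.93, and 7 of the 11, among them Cd79a and Pax5, were not well above background on any tumour array. Of 6 plasma cell markers 5 fell (83.3%), with Jchain at least 906-fold lower, and sums of 0.18 to 0.31 against 4.84 to 7.04. Erythroid and platelet markers summed to 2.73 to 3.54 in tumour and 8.29 to 9.61 in spleen, where Hba-a1, an alpha globin with a near-identical copy, fell by 8.23 ± 1.03. Pf4, a platelet gene, was at 2.12, 3.46 and 2.23 in tumour and at -1.94, 3.56 and -2.39 in spleen, where replicate 2 alone was high. It was not called with all arrays (2.86, adjusted p = 0.0927), but rose by 4.765 without that array (adjusted p = 4.82e-05).

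The remaining marker lists changed less, and their counts stand beside 22.0% higher and 20.3% lower of all features. Of 8 CD8 T and NK cell markers 1 rose and 3 fell, Cd8b1 by 1.11 ± 0.29, and their sums were 3.03 to 3.24 in tumour and 3.85 to 4.73 in spleen. Klrd1 was highest on spleen replicate 2 (3.25, against 1.35 and 0.12) and was not called. Neutrophil markers had 1 call of 5: Ltf, lactoferrin, was at least 34.4-fold higher in tumour, while S100a9 was not called and its sign turned without spleen replicate 3 (-0.79). Dendritic cell markers had 1 higher and 3 lower of 7, with Ciita (-1.24) and Itgax (0.45) not called. Endothelial markers had 1 higher and 1 lower of 7, where Pecam1 fell by 1.56 ± 0.34 and Eng was not called (1.61, adjusted p = 0.0521). Without spleen replicate 2 Eng was called higher (2.03, adjusted p = 0.0331). Epithelial markers had 2 of 3 higher, with Epcam not called (0.80) and Krt18 higher by 2.36 (adjusted p = 0.0277; 1.35 without spleen replicate 2), a call lost without tumour replicate 1 (adjusted p = 0.0949) or 3 (adjusted p = 0.0566). The single higher calls of the CD8 T and NK cell list and of the endothelial list were lost without tumour replicate 1 or 3.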

How the data were processed

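RNA of sorted Treg was measured on 12 one-colour Agilent arrays, 6 of which form the comparison. The scanner files hold the deposited intensity of each spot, made with Agilent Feature Extraction 9.5.3.1, background-subtracted and not normalized between arrays, per the file headers. Probes were annotated on mm8, per the file headers. The deposited value table is on a log10 scale (r from 0.995 to 1.00 with log10 of the processed intensity, column medians 1.33), with a normalization not given in the sources used here. It served as an alternative, converted to log2. The labels name a biotin label, which bears on no value here.

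Control spots were left out and 43379 spots averaged to 41174 probes. The RefSeq table of GRCm38.p6 gave names through accessions (23374 probes), symbols (6733) or synonyms (2919). The array's own name was kept for 1244 probes, and 6904 stayed unnamed. The brightest probe stood for a gene, and features well above background on at least 3 of 12 arrays were tested: 15544, of which 13518 had a gene name. From the deposited intensities, log2 levels minus the 75th percentile of the array were fitted in limma 3.58.1 (R 4.3.3; lmFit and eBayes, two-sided, 4 groups together, Benjamini-Hochberg over all features). On simulated data with 67, 67 and 66 features changed by 1.5, 2 and 4-fold, 2.99%, 22.4% and 63.6% were recovered. All other simulated features were left unchanged, whereas 42.3% of features were called in the data. The Benjamini-Hochberg adjustment is stricter when few features change, so these shares do not give the recovery in the data.

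Named genes were those of the gate, the 3 called members of smallest p in each programme list with the strongest called member of opposite direction, and the 12 largest rises and falls measured on all 6 arrays. From that last set predicted genes, immunoglobulins, collagens and cell type markers were left out. The 2 brightest markers of each cell type were also named. A few genes chosen in this way are not reported here. Other genes named beside them are list members chosen after their values were seen. The members, lists and tests were chosen with earlier results of these data known. Lrrc32, Tigit, Tox2, Xaf1, Gimap8 and Ly6g matched no probe. Genome sequence was not used here beyond RefSeq promoter windows, and the place of probes in exons or UTRs was not analysed here. Alternatives were other normalizations, backgrounds, filters and probe rules, slide and replicate blocks, array weights, and leaving out each array. Figures were drawn with matplotlib 3.10.9.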

Additional observations from a re-analysis of the deposited data

How the results depend on the processing

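Of 6571 features called between tumour and spleen Treg, the number was 5076 to 5606 when 1 of the 6 arrays was left out. It was 1865 with normexp, 3696 with T cell centring, 3382 with slide as a block, and 2719 with T cell centring and without spleen replicate 2, an alternative chosen after seeing the data. It was 8249 with the 6 arrays alone, 9486 with array weights, 6102 with quantile normalization and 6176 from the deposited values. Without the filter on dim probes 4737 of 27715 were called. Among features above background on all 6 arrays 5109 of 11683 were called (2315 higher, 2794 lower). The cause of these shifts was not tested. The replicate block gave 6841, but same-numbered arrays did not deviate together (r of -0.02, 0.08 and -1.69e-04), so they share only a number. Of the 124 named genes called, 120 to 124 stayed called when 1 array was left out, 85 with normexp, 106 with T cell centring, 108 with slide as a block and 122 with the replicate block.

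The 178 calls between total tumour and VERT-X tumour Treg became 2 to 201 when 1 array was left out, 3 with normexp, 77 with quantile normalization, 95 (58 higher, 37 lower) with the percentile of probes detected on all arrays, 390 (6 higher, 384 lower, against 130 and 48) with T cell centring, 78 from the deposited values, 2 without the filter, 464 among features above background on all 6 arrays, 2900 with array weights and 3 with slide as a block. The causes were not tested.

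Signs turned for genes that were not called: Foxp3 (0.29 with normexp, 0.025 with quantile normalization, 0.006 from the deposited values), Cd4 (-0.436 to 0.023 with 1 array left out, positive without spleen replicate 2, and 0.168 with T cell centring as well), S100a9 (-0.792 to 1.264, negative without spleen replicate 3, and -0.55 with slide as a block) and Itgax (-0.154 to 0.805, negative without spleen replicate 3). Ly6c1, which was called, turned to -0.25 with the mean of all probes. Probes not above background in a group give only a bound.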
